A study of Mus musculus with 2 samples.

Results

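CXC chemokines are small secreted proteins that guide leukocytes, and they were read here in bone marrow macrophages that were, or were not, turned into osteoclasts. The set held 8 genes, Pf4, Cxcl1, Cxcl2, Cxcl9, Cxcl10, Cxcl12, Cxcl14 and Cxcl16, chosen by name, out of 18193 genes that the arrays could be read for. They were represented by 15 probe sets, taken as every probe set annotated with that 1 symbol. The study comprised 2 Affymetrix arrays of cells from C57/Black6 mice aged 8 weeks. Osteoclasts had been grown for 6 days with RANKL, which induces osteoclast formation, on top of M-CSF, the growth factor of macrophages, and the macrophages for 6 days with M-CSF alone. Both arrays started from adherent marrow cells that had been kept for 3 days in M-CSF as common progenitors, so both groups carried that treatment. The labels do not say whether the 2 arrays shared animals or whether animals were pooled. With 1 array per group there was no replicate, no test was possible, and differences are given as sizes only.

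The ligands are grouped by receptor. Cxcl1 and Cxcl2 attract neutrophils through Cxcr2, Cxcl9 and Cxcl10 attract activated T cells through Cxcr3 and are classic interferon-induced genes, Cxcl12 holds blood cell precursors in marrow through Cxcr4, and Cxcl16, made as a membrane-anchored protein, binds Cxcr6. Pf4, platelet factor 4, is stored in platelet granules bound to proteoglycan and is also transcribed by macrophages. Cxcl14 is made in many resting tissues. In marrow, macrophages and osteoclasts arise from the same myeloid precursors, and RANKL acts through NF-kappaB, a transcription factor that also drives several of these ligands.

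Promoter sequences were at hand for 7 of the 8 members, and 4 are shown, those of the members whose values are set against interferon and NF-kappaB genes below and that of Pf4, the member with the lowest value. Each run is the 250 bases before the transcription start from RefSeq (GRCm38.p6), 5′ to 3′ on the gene's strand, with matches to any of 3 motifs in capitals on either strand. These are an NF-kappaB motif (GGG, any 3 bases, then TTCC), present in 4.65% of 32851 mouse promoters of this length, an interferon response motif (GAAA, any 2 bases, then GAAA), present in 2.98%, and the GATA motif AGATAA, present in 9.99%. Cxcl1 lies at chr5:90890995-90891244 and Cxcl2 at chr5:90903649-90903898, both on the plus strand, Cxcl10 at chr5:92348890-92349139 on the minus strand, and Pf4 at chr5:90772185-90772434 on the plus strand.
Cxcl1: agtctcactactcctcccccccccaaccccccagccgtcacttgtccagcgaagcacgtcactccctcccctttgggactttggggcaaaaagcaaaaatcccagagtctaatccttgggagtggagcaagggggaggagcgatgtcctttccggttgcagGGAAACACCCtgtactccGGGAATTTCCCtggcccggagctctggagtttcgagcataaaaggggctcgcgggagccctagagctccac
Cxcl2: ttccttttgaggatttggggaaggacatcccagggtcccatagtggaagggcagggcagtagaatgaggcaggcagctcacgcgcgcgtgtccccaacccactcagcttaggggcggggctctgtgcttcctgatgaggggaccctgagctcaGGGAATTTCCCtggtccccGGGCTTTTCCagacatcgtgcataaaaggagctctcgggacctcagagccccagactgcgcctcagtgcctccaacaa
Cxcl10: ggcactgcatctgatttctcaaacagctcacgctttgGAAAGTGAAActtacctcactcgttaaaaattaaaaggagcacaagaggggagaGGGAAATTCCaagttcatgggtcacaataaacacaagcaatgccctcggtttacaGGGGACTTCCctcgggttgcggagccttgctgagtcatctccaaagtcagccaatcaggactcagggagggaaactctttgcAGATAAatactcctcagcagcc
Pf4: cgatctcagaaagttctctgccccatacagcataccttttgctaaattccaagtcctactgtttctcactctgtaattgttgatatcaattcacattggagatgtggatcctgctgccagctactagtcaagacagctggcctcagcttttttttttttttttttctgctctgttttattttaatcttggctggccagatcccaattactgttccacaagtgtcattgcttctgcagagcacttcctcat
Cxcl1 and Cxcl2 each held 3 NF-kappaB matches, of which those read on opposite strands of one palindrome overlap. Their longest common stretch, GGGAATTTCCCTGG, was 14 bases long and began 71 bases before the start in Cxcl1 and 97 bases before it in Cxcl2. The Cxcl10 window had 2 NF-kappaB matches, 1 interferon motif 213 bases before the start and 1 GATA motif. An interferon motif was also found in the window of Cxcl14, 172 bases before the start, so 2 members held one, Cxcl10 with a higher and Cxcl14 with a lower signal in osteoclasts. None of the 3 motifs matched in the Pf4 window. A match is a description of the sequence and not a binding site.

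The osteoclast array had a lower median signal. Over the 23708 probe sets above the floor in both arrays, log2 osteoclast minus macrophage had a median of -0.43, or 1.35-fold, and differences below are log2 values relative to this shift unless called deposited. The floor, below which a signal counts as not measured, was 14.4 in the osteoclast array and 17.0 in the macrophage array. Olfactory and vomeronasal receptor probe sets, taken as a guide to background, had 95th percentiles of 25.7 and 28.2 in those arrays. A fold written "at least" sets the dimmer signal to that higher level. All 8 osteoclast markers were at least 2-fold higher in the osteoclast array (median 5.09), and 4 of 8 macrophage markers were at least 2-fold lower (median -1.05). Xist, the RNA of the inactive X chromosome, gave 22.1 in osteoclasts and 1872 in macrophages, and the Y-linked gene Eif2s3y 321 and 0.571, so animals of different sex and the RANKL treatment cannot be told apart. The only error available was the spread between probe sets of 1 gene, an SD of 0.49 over 14641 probe sets of 5435 genes, which leaves out variation between cultures and animals.

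Of the 8 members, 7 were above the floor in both arrays and 1, Cxcl9, was below it in both. On the scale that takes the shift out, Pf4, Cxcl14 and Cxcl2 were at least 2-fold lower in osteoclasts, 1 member, Cxcl10, was at least 2-fold higher, and Cxcl1, Cxcl12 and Cxcl16 were less than 2-fold apart. The 3 lower members stand beside 6.99% of the 13647 genes measured in at least 1 array that were at least 2-fold lower, and the 1 higher member beside 7.11% that were at least 2-fold higher. As deposited, 4 members were at least 2-fold lower, Cxcl12 being the fourth, and 0 were higher, beside 17.5% and 3.0% of all genes. The median of the 7 members was -0.81 (-1.24 as deposited), and that of all genes 0.0041 (-0.43 as deposited). The plot of probe set signals shows each pair of values.

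**Figure D1:**
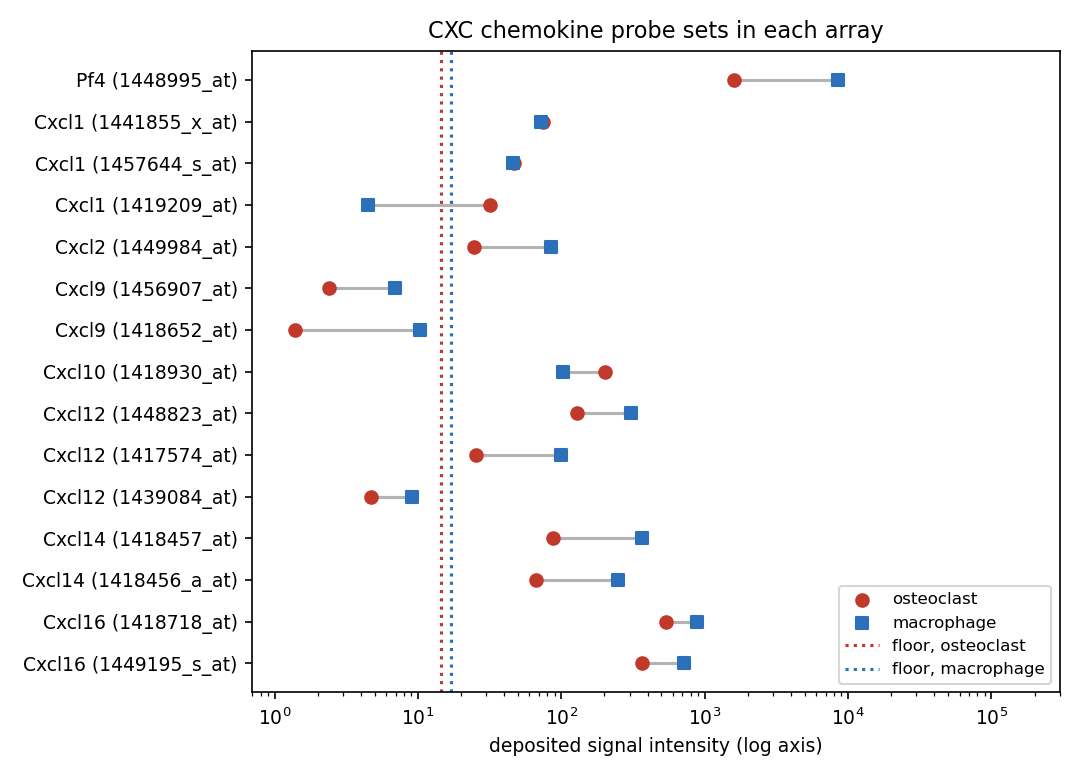
Deposited signal intensity, on a log axis, of each of the 15 probe sets of the CXC chemokines in the osteoclast array (circles) and the macrophage array (squares), with the floor of each array as a dotted line. Pf4 is far to the left in osteoclasts (1609 against 8488), Cxcl10 is to the right (202 against 103), and both Cxcl9 probe sets lie under the floor in both arrays.

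Pf4 had the largest difference of the set. Its single probe set gave 1609 in osteoclasts and 8488 in macrophages. The osteoclast signal was thus lower but still far above background, a difference of -1.97, or 3.91-fold (5.28-fold as deposited). This is 3.98 times the SD between probe sets of a gene, and 137 of the 13647 genes, Pf4 included, had a difference as low or lower. Among genes with a mean signal above 1000, where that SD was 0.31, 6.69% were at least 2-fold lower.

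Because Pf4 is a platelet protein, genes of megakaryocytes and platelets were read beside it. Of 11 such markers, 9 had a probe set with 1 symbol and all 9 were above the floor in at least 1 array. In osteoclasts 2 were at least 2-fold higher, Vwf and Gp6, and 1, Treml1, was at least 2-fold lower, with a median of 0.47 (0.034 as deposited, with 1 higher and 2 lower). With the dimmer signal raised to the higher background level, Gp6 was at least 1.70-fold higher, under 2-fold. Of the 9, 6 lay above the shift and 3 below it. The summed deposited signal of the list was 418 in osteoclasts and 411 in macrophages, to which Vwf gave 95.5 and 13.9. The part of such cells in the Pf4 value was not tested. Ppbp, the other CXC chemokine of platelet granules and the next named coding gene to Pf4 on the chromosome, gave 106 in osteoclasts and 104 in macrophages, a difference of 0.47 (0.034 as deposited). Among the rest of the list, Itga2b gave 79.9 in osteoclasts and 74.7 in macrophages, Gp1bb 35.8 and 39.7, and Gp5 40.7 and 34.0. Gp9 gave 4.21 and 35.3 and Selp 4.65 and 19.5, both below the floor in osteoclasts. Srgn, which encodes serglycin, the granule proteoglycan that stores Pf4 in platelets, differed by 0.12 (-0.31 as deposited). Summed deposited signals of macrophage markers were lower in osteoclasts, at 15780 against 31200, with the 1.35-fold shift not taken out. The part of these markers' cells in the Pf4 value was not tested. In RNA from whole cultures, fewer cells of a type and less RNA per cell cannot be told apart.

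Cxcl14 came next, and both of its probe sets pointed the same way. The brighter one gave 87.5 in osteoclasts and 364.7 in macrophages, a difference of -1.63, and the other 66.3 and 250, a difference of -1.48. Both were thus lower in osteoclasts by 3.09-fold and 2.79-fold, and the gap between them was smaller than the SD of 0.49. As deposited the folds were 4.17 and 3.77. All 4 signals were clear of that background level. Of genes with a mean signal of 100 to 1000, 7.15% were at least 2-fold lower.

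Cxcl2 and Cxcl1, the ligands of Cxcr2, had unlike values. The probe set of Cxcl2 gave 24.6 in osteoclasts and 84.3 in macrophages, so its osteoclast signal was in the range of background. The difference was -1.34, and with the osteoclast signal raised to the 95th percentile of the receptors Cxcl2 was at least 2.43-fold lower. Among genes with a mean signal under 100, where the SD between probe sets was 0.56, 6.89% were at least 2-fold lower.

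Cxcl1 had 3 probe sets, which disagreed. The brightest, of a type that can bind unrelated transcripts (suffix _x_at), gave 74.8 in osteoclasts and 72.3 in macrophages, a difference of 0.48. The second, of a type shared by several transcripts (suffix _s_at), gave 47.0 and 45.7, a difference of 0.47. Both put Cxcl1 close to equal in the deposited values, at 0.050 and 0.041. The third, with no such suffix, gave 32.1 in osteoclasts and 4.51 in macrophages, below the floor, and put Cxcl1 at least 1.54-fold higher in osteoclasts. No probe set of Cxcl1 was lower in osteoclasts, while the Cxcl2 probe set was.

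Other genes of the same group were dim. Cxcl3, a further Cxcr2 ligand, gave 23.1 in osteoclasts and 28.3 in macrophages (0.14, and -0.29 as deposited), while Cxcl5 and Cxcl15 were below the floor in both arrays. The receptor gene Cxcr2 was also below the floor in both, at 4.66 in osteoclasts and 2.74 in macrophages. In the RefSeq gene table the named coding genes run in the order Cxcl5, Ppbp, Pf4, Cxcl3, Cxcl15, Cxcl1 and Cxcl2. Along that row, differences of 0.47 (Ppbp), -1.97 (Pf4), 0.14 (Cxcl3), 0.48 (Cxcl1) and -1.34 (Cxcl2) were measured. As deposited, Ppbp, Cxcl3 and Cxcl1 differed by 0.034, -0.29 and 0.050. In their brightest probe sets these 3 lay within the SD of 0.49 from the shift, while Pf4 and Cxcl2 were lower in osteoclasts. Granulocytes carry Cxcr2, and 8 of their 10 markers on the array were at least 2-fold higher in osteoclasts, beside 7.11% of all genes measured. The list median was 1.45. As deposited, 5 of 10 were at least 2-fold higher, beside 3.0% of all genes. Among the 8, Ctsg was at least 1.71-fold higher, under 2-fold at the higher background level. The summed deposited signal of these markers was 6369 in osteoclasts and 3674 in macrophages. The part of granulocytes in the Cxcl1 and Cxcl10 values was not tested.

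Cxcl10 was the 1 member at least 2-fold higher in osteoclasts relative to the shift. Its single probe set gave 202 in osteoclasts and 103 in macrophages. Both signals were well above background, and the difference was 1.40, or 2.65-fold. As deposited it was 0.97, or 1.96-fold, just under 2-fold. Of the 13647 genes, 430 had a difference as high or higher, Cxcl10 included, and 5.81% of genes with a mean signal of 100 to 1000 were at least 2-fold higher. The difference was 2.85 times the SD between probe sets.

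The other ligands of Cxcr3 gave little signal. The probe sets of Cxcl9 gave 2.41 and 1.38 in osteoclasts, against 6.89 and 10.3 in macrophages, all below the floor, so no fold is given. Cxcl11 reached 19.3 in osteoclasts in 1 of its probe sets, within the range of background, and 12.5 in macrophages. The receptor gene Cxcr3 gave 51.5 in osteoclasts and 124.5 in macrophages, a difference of -0.84 (-1.27 as deposited), on the opposite side of the shift from Cxcl10. The plot of ligands and receptors sets these values side by side.

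**Figure D2:**
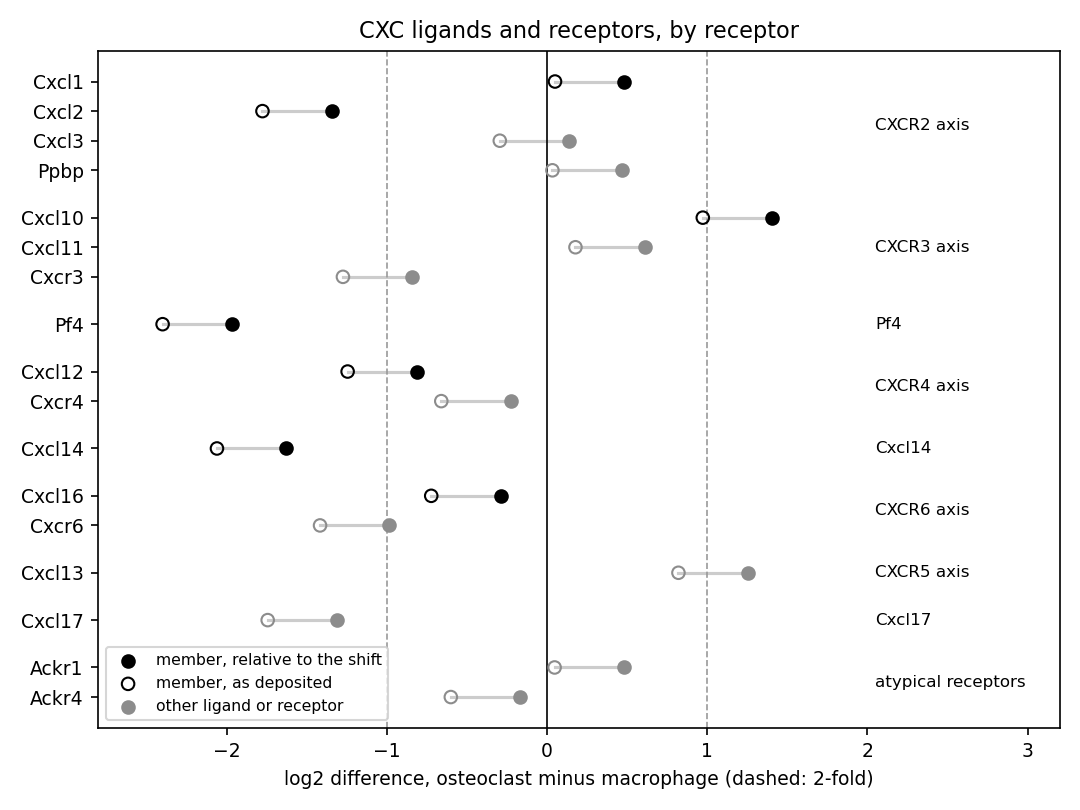
Log2 difference, osteoclast minus macrophage, of the CXC ligands and receptors above the floor in at least 1 array, grouped by receptor; filled circles are relative to the shift, open circles as deposited, and black marks the 7 members with a value. Pf4, Cxcl14 and Cxcl2 lie below -1 on both scales, while Cxcl10 passes 1 relative to the shift (1.40) and not as deposited (0.97).

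Interferon-induced genes as a list did not share the Cxcl10 value. Of 15 measured members, none was at least 2-fold higher in osteoclasts and 2, Ifit2 and Iigp1, were at least 2-fold lower, with a median of -0.16 (-0.60 as deposited). The values ran from -1.13 for Ifit2, an antiviral protein gene (81.2 in osteoclasts, 239 in macrophages), to 0.75 for Gbp3, a guanylate-binding protein gene (72.5 and 58.1). Cxcl10, at 1.40, was outside that range. For interferon signalling, the 12 measured genes had a median of -0.57, and 1 was at least 2-fold lower (6 as deposited). The lowest was Irf8, a transcription factor of the macrophage lineage, with 177 in osteoclasts and 934 in macrophages (-1.97), and the highest Ifngr2, a chain of the interferon gamma receptor (0.25, and -0.18 as deposited).

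Inflammatory genes that NF-kappaB induces went mostly the other way from Cxcl10. Of 12 measured, 5 were at least 2-fold lower in osteoclasts, Tnf, Ptgs2, Ccl3, Ccl4 and Zfp36, and 1, Tnfaip3, was at least 2-fold higher, with a median of -0.78 (-1.21 as deposited, with 7 lower and 0 higher). Ccl4, a CC chemokine, gave 50.4 in osteoclasts and 375 in macrophages (-2.47). Tnfaip3, which encodes the A20 protein that restrains NF-kappaB, gave 390 and 249 (1.08). Nfkbia, which encodes the NF-kappaB inhibitor IkappaB alpha and is itself induced by NF-kappaB, gave 5961 in osteoclasts and 5032 in macrophages in its brightest probe set (0.68), and its 5 probe sets ran from 0.68 to 1.66, all above the shift. Of the 12 genes, 3 lay above the shift and 9 below it, so a member of either direction has listed genes on its side. The members set beside them were Cxcl10 at 1.40, Cxcl1 at 0.48 (0.050 as deposited) and Cxcl2 at -1.34. An NF-kappaB match was found in 3 of the 7 member promoter windows, beside 4.65% of all mouse promoters. These were the windows of Cxcl1, Cxcl2 and Cxcl10, whose differences do not share 1 direction. The part of NF-kappaB in their values was not tested.

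Cxcl12 was lower in osteoclasts by an amount that depended on the probe set. The brightest gave 129.5 in osteoclasts and 306.9 in macrophages, a difference of -0.81 or 1.76-fold (2.37-fold as deposited). The second gave 25.6 and 99.5, a difference of -1.53, with the osteoclast signal in the range of background and a fold of at least 2.87. The third was below the floor in both arrays, at 4.75 and 9.04. Both measured probe sets thus put Cxcl12 lower in osteoclasts, by sizes that straddle 2-fold. The receptor gene Cxcr4 was nearer the shift, with 274.8 in osteoclasts and 434.2 in macrophages (-0.23, and -0.66 as deposited), and Ackr3, which encodes the atypical receptor that takes up Cxcl12, was below the floor in both.

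Stromal cells are the main source of Cxcl12 in marrow, so their genes were read beside it. Of 13 stromal and osteoblast markers on the array, 12 were above the floor in at least 1 array and 11 in both. Lum was below it in both. Sp7 (27.2 in osteoclasts, 33.6 in macrophages) and Lepr (29.3 and 27.8) were near the higher background level. In osteoclasts 2 were at least 2-fold lower, Kitl and Tnfrsf11b, and 2 at least 2-fold higher, Col3a1 and Dcn, with a median of -0.014 (-0.45 as deposited, with 4 lower and 1 higher). Dcn was dim and at least 1.77-fold higher, under 2-fold at the higher background level. Collagen genes gave strong signals, with Col1a1 at 1381 in osteoclasts and 2078 in macrophages and Col1a2 at 2895 and 5744. Col3a1 gave 1255 and 767. Of the 12 measured markers, 6 lay above the shift and 6 below it, with Col1a1 and Col1a2 below. The summed deposited signal of the list was 8587 in osteoclasts and 15500 in macrophages, with the 1.35-fold shift not taken out. The part of stromal cells in the Cxcl12 and Cxcl14 values was not tested.

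Cxcl16 stayed closest to the shift. The brighter probe set gave 538 in osteoclasts and 887 in macrophages, a difference of -0.29, and the other, shared by several transcripts, 364 and 722, a difference of -0.55. Both were lower in osteoclasts by less than 2-fold on either scale (1.65-fold and 1.98-fold as deposited). Their gap to 0 was 0.587 and 1.12 times the SD between probe sets. The receptor gene Cxcr6 was dim, with 14.9 in osteoclasts and 39.9 in macrophages, and was at least 1.15-fold lower.

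Adam10 and Adam17, the membrane proteases that release Cxcl16 from the cell surface, were both strongly detected. Adam10 gave 1337 in osteoclasts and 2966 in macrophages (-0.72, and -1.15 as deposited) and Adam17 847 and 1583 (-0.47). The 3 measured probe sets of Adam10 ran from -0.83 to 0.17 and those of Adam17 from -0.72 to -0.41. The brightest probe sets of both proteases and of Cxcl16 were thus lower than the shift by less than 2-fold.

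The list of proteases known to cut CXC chemokines, Adam10 and Adam17 among them, included the largest difference of any listed gene, that of Mmp9. Of 15 measured, 5 were at least 2-fold higher in osteoclasts, Mmp9, Mmp14, Ctsg, Elane and Ctsk, on both scales, and 1, the collagenase gene Mmp13, was at least 2-fold lower (-1.06), against 5 as deposited. Mmp9, a gelatinase that trims the ends of CXC ligands, gave 8767 in osteoclasts and 30.4 in macrophages (8.61), and its second probe set 7828 and 20.3. Ctsg and Elane are granulocyte genes, below the floor in macrophages, and were at least 1.71-fold and 2.18-fold higher, so that Ctsg is under 2-fold at the higher background level. Dpp4, which clips Cxcl10 and Cxcl12, was below the floor in both arrays in its brightest probe set, and 1 of its 4 probe sets gave 28.9 in osteoclasts and 3.32 in macrophages. The list median was -0.30 (-0.74 as deposited), which does not show the members that were far apart.

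Proteoglycans, which bind chemokines, and enzymes of their synthesis were read from 12 genes with a median of 0.050 (-0.38 as deposited). Of these, 3 were at least 2-fold higher in osteoclasts on both scales, Sdc1, Vcan and Ext1, and none was lower by 2-fold (1 was, as deposited). These counts use the brightest probe sets. With the mean of a gene's probe sets, or the dimmest, 2 genes of the list were 2-fold apart. Sdc1, a syndecan, gave 1785 in osteoclasts and 454.5 in macrophages (2.41), and Sdc3, another syndecan, 751 and 1780 (-0.81). Syndecans thus lay on both sides of the shift.

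**Figure D3:**
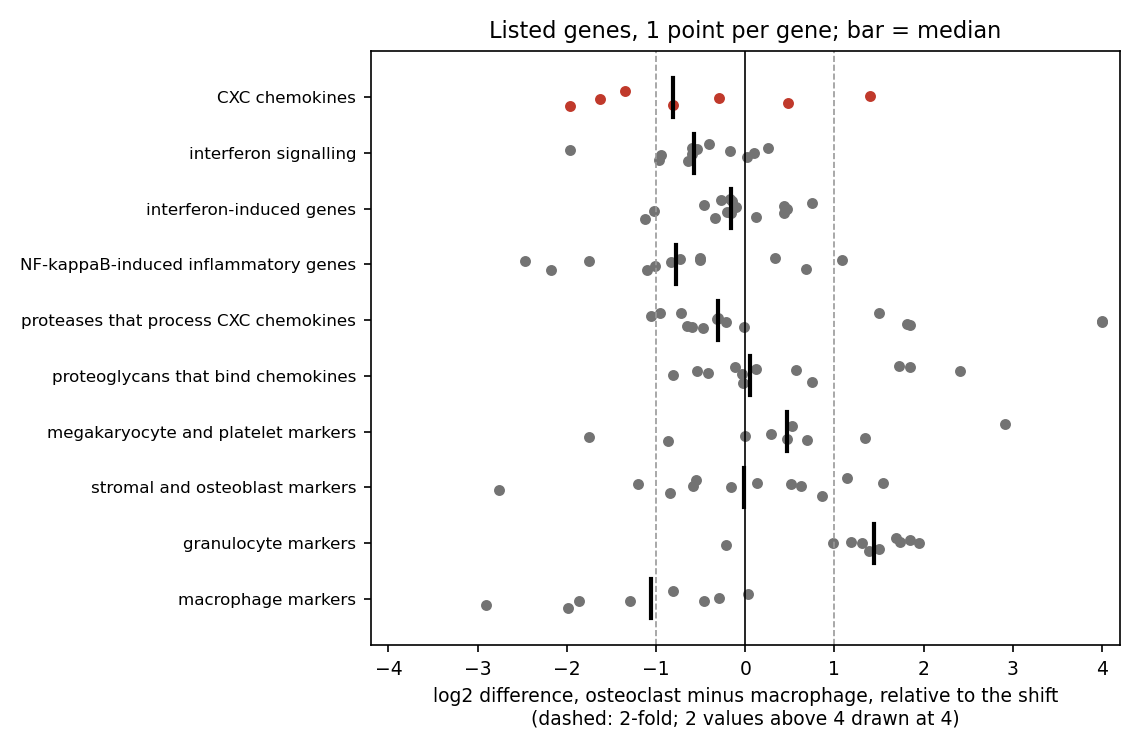
Log2 difference, osteoclast minus macrophage, relative to the shift, for each gene above the floor in at least 1 array, by list, with 1 point per gene and the median as a bar. The CXC chemokines run from -1.97 (Pf4) to 1.40 (Cxcl10), and Cxcl10 lies to the right of all 15 measured interferon-induced genes.

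Of the 5 other CXC ligands measured, 1, Cxcl13, was at least 2-fold higher in osteoclasts (1.25) and 1, Cxcl17, at least 2-fold lower (-1.31, beside -1.34 for Cxcl2), with 0 higher and 1 lower as deposited. Both were below the floor in 1 array. Cxcl13, the ligand of Cxcr5, gave 30.1 in osteoclasts and 10.7 in macrophages and was at least 1.44-fold higher at the higher background level, while Cxcr5 was below the floor in both arrays. Cxcl17 gave 12.5 in osteoclasts, below the floor, and 48.2 in macrophages, at least 1.39-fold lower at that level. Of the 8 receptor genes on the array, 5 were above the floor in both arrays and none was 2-fold apart relative to the shift, while 2, Cxcr3 and Cxcr6, were at least 2-fold lower as deposited. The atypical receptor genes Ackr1 and Ackr4 differed by 0.48 (55.0 in osteoclasts and 53.2 in macrophages) and -0.17 (124 and 188), and a second Ackr4 probe set gave 0.58. Cxcr1 is not analysed here.

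Ordered by difference, the members ran Pf4 (-1.97), Cxcl14 (-1.63), Cxcl2 (-1.34), Cxcl12 (-0.81), Cxcl16 (-0.29), Cxcl1 (0.48) and Cxcl10 (1.40). Neighbours from Pf4 to Cxcl2 were closer together than the SD of 0.49 between probe sets, so their order is not settled. Steps from Cxcl2 to Cxcl12 and from Cxcl12 to Cxcl16 were of about that SD. Those from Cxcl16 to Cxcl1 and from Cxcl1 to Cxcl10 were larger than it. This order rests on the brightest probe set of each gene and changes with that choice. The third Cxcl1 probe set, at 1.35, was close to Cxcl10, and the second Cxcl12 probe set, at -1.53, was below Cxcl2. The histogram of all genes shows where each fell.

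**Figure D4:**
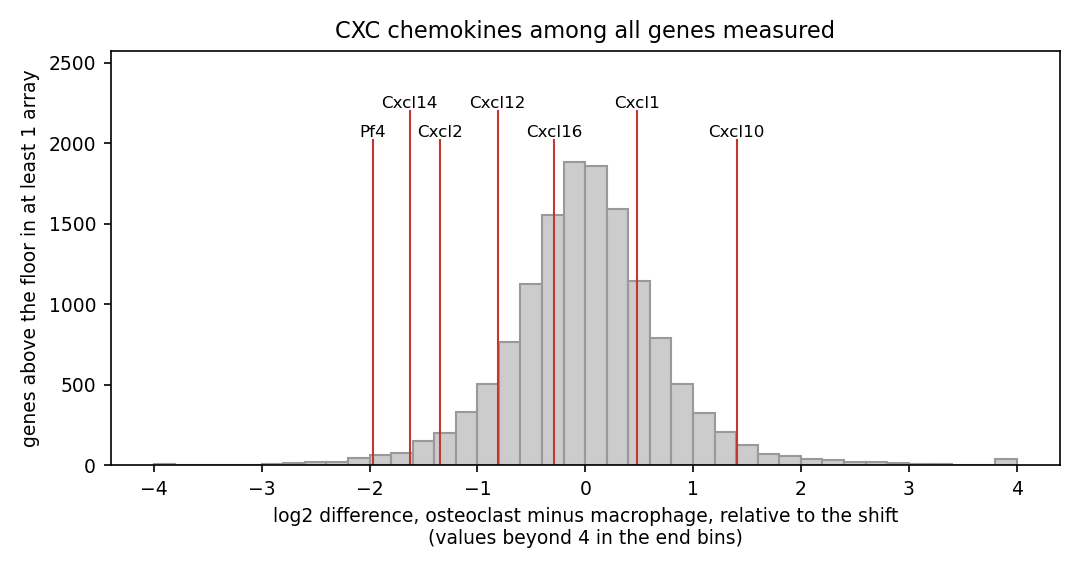
Number of genes above the floor in at least 1 array (13647 in all) by log2 difference, osteoclast minus macrophage, relative to the shift, with the 7 members that have a value as vertical lines. Pf4 (-1.97) and Cxcl14 (-1.63) lie in the left tail, Cxcl10 (1.40) in the right tail, and Cxcl16 (-0.29) in the central bulk.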

How the data were processed

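The authors deposited 1 linear signal intensity per probe set and array, for 45101 probe sets. No source used here states the summary, background or scaling steps behind it, or gives a detection call. Per the labels' protocols, 1 µg of total RNA was labelled with biotin as cRNA in 1 cycle and hybridised. The 64 control probe sets were left out, and 34945 probe sets with 1 gene symbol in the platform annotation were used, of which 34741 matched the RefSeq table by Entrez identifier. The brightest probe set, by mean log2 over both arrays, stood for a gene. Values under the floor, the 40th percentile of the array's probe sets other than controls, were raised to it. At this floor 15% and 20% of 80 olfactory and vomeronasal receptor probe sets counted as measured in the osteoclast and macrophage arrays. The median signals were 22.8 and 27.0. The number of arrays limits the precision, and no p-value could be had. Named were all members, other CXC ligands and CXC receptors, some fixed pathway genes and the extremes of each pathway list (not of marker lists); others named were picked after their values were seen. Members, lists and motifs were chosen with earlier results of these data known. The calculation was tested on simulated data with large effects placed only in bright genes. The simulated noise was below the spread between probe sets, so the test does not cover dim genes or small differences. The calculation used Python 3.11.15, numpy 2.4.6, pandas 2.3.3 and matplotlib 3.10.9.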

Additional observations from a re-analysis of the deposited data

How the results depend on the processing

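The differences of the members, other CXC ligands and receptors, the list medians and the counts of members, pathway genes and all genes 2-fold apart were recomputed under up to 7 alternatives: deposited values without centring, median centring, quantile normalization, the receptor percentile as floor, no floor, the mean of a gene's probe sets, and its dimmest probe set. Of 48 member values obtained under them, 48 kept their direction and 47 moved by less than the SD between probe sets. The exception was Cxcl1, at 1.35 with its dimmest probe set, which made 2 members at least 2-fold higher. Without centring that number was 0. Many of these outcomes were fixed in advance, so the tally is no measure of robustness. Leaving out centring, or centring on the median, moves every gene alike by less than that SD. Dropping the floor left the values of all 7 members unchanged. A gene with 1 probe set cannot change with the choice of probe set. Cxcl1 kept its direction by only 0.050 without centring. The members at least 2-fold lower numbered 3 to 4. Among other ligands and receptors, 3 genes moved by more than the SD under some alternatives. Cxcl13 ran from 0.54 to 1.93, Cxcl17 from -1.74 to -0.46 and Cxcr6 from -1.42 to -0.18. The values of Ackr4 (-0.60 to 0.20) and Cxcl3 (-0.29 to 0.31) changed sign. Of the protease genes, 10 were 2-fold apart without centring. Interferon signalling genes 2-fold apart numbered 6 without centring, 3 with median centring, 2 without a floor, 2 with the mean of probe sets and 5 with the dimmest, and interferon-induced genes 1 under quantile normalization. Over all genes, 2390 of 13647 were lower and 409 higher without centring, where every gene moves by the shift. Without a floor, all 18193 genes count and dim signals are not raised, and 2597 were lower and 2775 higher. The dimmest probe set gave no value for Cxcl12. Single genes of the other lists, counts of cell type markers, summed signals and shares by signal class were not recomputed. No paired analysis was possible because each group has 1 array. Signals near the floor include background, which limits Cxcl2, Cxcl9 and the dim receptors.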
